A study of Homo sapiens with 36 samples.

Results

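The genes described here are 40 genes of the integrated stress response and of amino acid supply. They were chosen by a list of symbols with their Ensembl identifiers. This rule uses no measured value, but the list was made with earlier results of these data known. Of the 40 genes, 38 were among the 18919 genes of the deposited table, and ATF4 and GDF15 were not analysed here. The 38 were placed by role into 6 transcription factors, 5 feedback and stress effectors, and 3 genes for secreted factors or a surface receptor. The others were 7 enzymes of asparagine, serine and one-carbon metabolism, 6 amino acid transporters and 11 tRNA synthetases. HepG2, the cells used, is an established human line that came from a liver tumour. The cultures received 10 mM or 0.5 mM acetaminophen (APAP), an analgesic that injures the liver in overdose, or the solvent DMSO at 0.5%, for 12, 24, 48 or 72 h by the sample labels. Each of the 12 groups held 3 Affymetrix arrays, which the series' design text calls biological replicates. All groups shared the same cell line, which lacks other liver cell types, and it is unclear from the labels whether the APAP medium also held DMSO. The extraction text speaks of 24 h for every sample, so the times rest on the titles and time labels.

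The integrated stress response begins when a kinase that senses amino acid shortage, unfolded protein in the endoplasmic reticulum, haem deficiency or viral RNA phosphorylates the translation factor eIF2 alpha. Translation then falls in general, while the mRNA of the transcription factor ATF4 is translated better. ATF4, paired with C/EBP proteins, switches on genes that make and import amino acids and charge tRNAs, and also genes such as DDIT3 and TRIB3 that act when the stress persists. In liver cells the response is best known from protein and amino acid restriction and from drug injury.

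A DNA element known as the C/EBP-ATF composite site (TGATG, then any base, then AA) links many of these genes to ATF4, so the windows from 250 bases before to 50 bases after the RefSeq start sites (build GRCh38.p14) were searched for it on both strands. Windows existed for 33 of the 38 genes. Of these 33, 16 (48.5%) held the element, against 4.46% of all 27305 genes with a window. The genes were listed for this response, and many are already linked to ATF4 through this element. The contrast is therefore a description and no independent support for such a link. The genes had more windows each (a mean of 1.58 against 1.29), and by window the share was 30.8% of 52 against 3.62% of 35116. It was found in 7 of 10 tRNA synthetases with a window, 4 of 6 transporters, 2 of 5 transcription factors, 1 of 4 enzymes, 1 of 5 effectors and 1 of 3 secreted or receptor genes. The 10 sites below are shown because they cover each role and the genes described most closely further on. GARS, SLC3A2, SLC7A1, SLC1A5, TARS and NARS also held the element. Each site shown is written on the strand that carries the element, with the element in capitals:
ASNS: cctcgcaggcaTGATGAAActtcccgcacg
CEBPG: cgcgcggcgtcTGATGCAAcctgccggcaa
ATF3: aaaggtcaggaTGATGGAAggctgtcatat
SLC1A4: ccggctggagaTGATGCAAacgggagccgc
CARS: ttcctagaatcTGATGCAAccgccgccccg
MARS: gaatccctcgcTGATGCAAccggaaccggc
AARS: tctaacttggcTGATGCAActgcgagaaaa
IARS: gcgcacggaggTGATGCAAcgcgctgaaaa
CHAC1: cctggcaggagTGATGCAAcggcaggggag
FGF21: ctcctcctcccTGATGCAAtcctggtgttt
The ASNS site lies at chr7:97872458-97872487 on the minus strand, with its first capital at position -68 from the gene's start. The CEBPG site lies at chr19:33374060-33374089 and the ATF3 site at chr1:212565205-212565234, both on the plus strand. The SLC1A4 site is at chr2:64989381-64989410 (minus), the CARS site at chr11:3057407-3057436 (plus) and the MARS site at chr12:57488053-57488082 (minus). AARS has its site at chr16:70289675-70289704 (plus) and IARS at chr9:92293692-92293721 (plus), while those of CHAC1 and FGF21 are at chr15:40953251-40953280 and chr19:48755459-48755488 (both minus). A match is a run of letters and not a measured binding site, and no match, as for DDIT3 and TRIB3, says only that these letters are not in the windows searched.

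Levels are log2 values made by RMA, so a difference of 1 is a factor of 2 between groups for the same gene, and levels of different genes are not comparable. A gene is called higher or lower where limma's test over all 18919 genes gave an adjusted p under 0.05 (Benjamini-Hochberg). Array medians ran from 3.32 to 3.46, r between arrays of a group was at least 0.99, and the median standard error (SE) of a difference between groups was 0.12. Weak spike-in controls were seen in 6 arrays, replicate 1 of 10 mM at 12, 48 and 72 h, replicate 2 of 10 mM at 24 h, and replicate 1 of DMSO at 24 and 48 h. Over the 38 genes, DMSO replicate 2 at 24 h stood high (mean level 8.30 against 7.78 and 7.84). The 10 mM array of the same number and time was also the highest of its group (8.72 against 8.53 and 8.30). DMSO replicate 1 at 48 h stood high too (9.19 against 8.83 and 8.72). The 0.5 mM replicate 3 at 24 h stood low (7.66 against 8.02 and 8.05). CHAC1, FGF21 and ALDH1L2 lay below the highest array median in all 12 groups, and 6 of the 38 did so in at least 1 group, so a fold change of theirs may understate the difference. Since RNA of whole cultures was measured, fewer cells expressing a gene and less RNA per cell cannot be told apart.

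In solvent alone, the genes rose together from 12 to 72 h. Time in culture and time in DMSO cannot be told apart here, since no untreated culture is among the groups. Between 12 and 72 h in DMSO, 34 of 38 were called higher and 0 lower, where 30.5% of all genes were called (15.6% higher), and the median change was 1.48 on the log2 scale against 0.02 over all genes. The changes ran from 0.10 to 4.29, and in 36 genes the arrays at 72 h lay wholly above those at 12 h, as in 21.8% of all genes. All 7 enzymes and all 6 transporters were called, with 10 of 11 synthetases, 5 of 6 transcription factors, 4 of 5 effectors and 2 of 3 secreted or receptor genes. The 4 not called were CHAC1, FGF21, ATF5 and EPRS. By limma's F test over all 4 times, the DMSO level differed in 34 genes (30.7% of all genes). Averaged over the 38 genes, the DMSO level was 7.75 ± 0.10 (12 h), 7.97 ± 0.29 (24 h), 8.91 ± 0.25 (48 h) and 9.28 ± 0.04 (72 h), given with the SD (n = 3).

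With all arrays in the fit, most of the rise fell between 24 and 48 h. These comparisons of neighbouring times were added after the data had been seen. From 12 to 24 h in DMSO 4 genes were called higher (3.92% of all genes called in either direction), namely DDIT4, STC2, SLC38A2 and PPP1R15A, of which the last was lost without DMSO replicate 3 at 12 h or replicate 1 or 2 at 24 h. From 24 to 48 h 28 were higher and 0 lower (13.7% of all genes called, 6.75% higher), with a median change of 0.96. Leaving out the 6 arrays with weak spike-ins left 21 of these. From 48 to 72 h 6 were higher (3.39% of all genes called, 1.36% higher), DDIT3, ATF3, TRIB3, SESN2, SLC3A2 and WARS. That count was 16 without DMSO replicate 1 at 48 h, 3 without replicate 2 and 2 without replicate 3, and 17 without the 6 arrays with weak spike-ins.

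**Figure D1:**
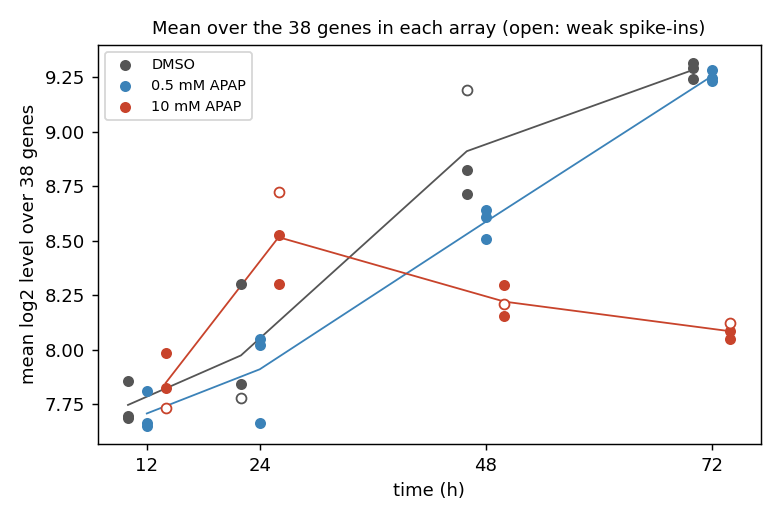
Mean log2 level over the 38 genes in each array against time, with points of the 3 treatments set slightly apart sideways, lines through group means and open points for arrays with weak spike-ins. DMSO climbs from 7.75 to 9.28 and 0.5 mM from 7.71 to 9.26, while 10 mM peaks at 8.52 at 24 h and ends at 8.09.

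The 10 mM cultures followed another course. Their mean over the 38 genes was 7.85 ± 0.13 (12 h), 8.52 ± 0.21 (24 h), 8.22 ± 0.07 (48 h) and 8.09 ± 0.04 (72 h), given with the SD (n = 3), so that it was above DMSO at 24 h and below it at 48 and 72 h. Against DMSO at the same time, 9 genes were called higher and 7 lower at 12 h, where 26.6% of all genes were called (14.2% higher, 12.4% lower), with a median change of -0.02. At 24 h 19 were higher and 3 lower (29% of all genes called, 15.3% higher and 13.7% lower), with a median of 0.58. At 48 h 0 were higher and 26 lower (31.2% of all genes called, 16.3% higher and 14.9% lower), with a median of -0.57. At 72 h 0 were higher and 33 lower (33.4% of all genes called, 17% higher and 16.5% lower), with a median of -1.04, and in 36 genes all 10 mM arrays lay below all DMSO arrays, as in 21.7% of all genes. The median over all genes was within 0.02 of 0 at each time.

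Leaving out arrays that stood apart moved the counts at 24 and 48 h. Without the 6 arrays with weak spike-ins, 15 genes were called at 12 h (9 higher), 16 at 24 h (13 higher), 17 at 48 h (0 higher) and 33 at 72 h (0 higher). Without DMSO replicate 2 at 24 h, which stood high, the count at 24 h was 26, of which 23 were higher. That fit kept 10 mM replicate 2 at 24 h, also the highest of its group, and leaving out both was not tested. The 10 mM and DMSO arrays of the same number at 24, 48 and 72 h were treated as paired, since their deviations correlated weakly (r over 0.1). With the number as a block DDIT3 (adjusted p = 0.0161), TRIB3 (0.00649) and NARS (0.0487) were also called higher at 24 h, SLC38A2 lower at 24 h (0.00326) and SARS lower at 48 h (0.0157). The block at 24 h also held the 0.5 mM arrays, where not all pairs correlated. At 48 h 8 of the 26 calls (AARS, CARS, EPRS, MARS, PSAT1, SLC7A1, TARS and YARS) were lost in at least 1 fit without a single array, with 18 calls left without DMSO replicate 1, and at 72 h none of the 33 was lost in any such fit.

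The effect of 10 mM differed between times in 34 of 38 genes by limma's F test (21.3% of all genes). Taken directly, the effect at 72 h was below that at 24 h in 34 genes and above it in 0 (15.7% of all genes called; 7.5% lower), with a median difference of -1.70. It was below the effect at 12 h in 30 genes and above it in 0 (19.8% of all genes called), with a median of -1.21. Between 12 and 24 h the effect rose in 4 genes and fell in 0 (2.33% of all genes called), namely TRIB3 by 1.76, MARS by 1.30, SLC1A4 by 1.12 and IARS by 0.57 on the log2 scale. That last count was 12, all higher, with the replicate number as a block, though at 12 h not all pairs correlated. The block added PSAT1, SLC7A1, CEBPG, NUPR1, YARS, TARS, NARS and SLC1A5. The count was 9 without DMSO replicate 2 at 24 h and 2 without the 6 arrays with weak spike-ins. TRIB3 was not called in 8 of the fits without a single array. These direct differences were added after the data had been seen.

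**Figure D2:**
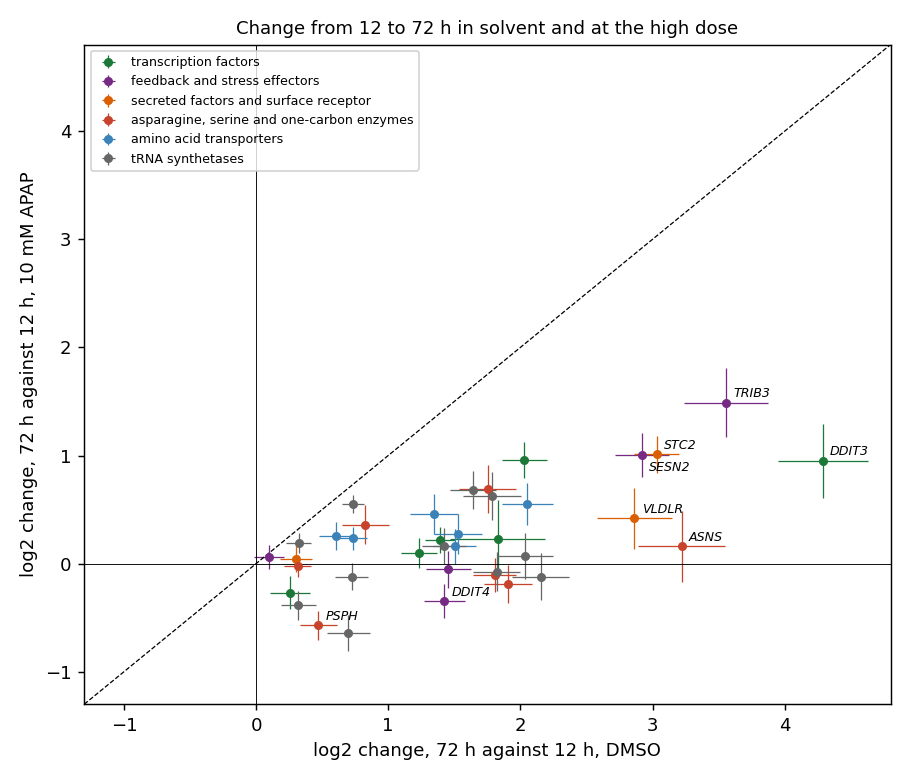
Log2 change from 12 to 72 h in DMSO (horizontal) and at 10 mM (vertical) for each of the 38 genes, coloured by role, with bars of 1 SE; the dashed line marks equal change. All points lie below the line, with a median change of 1.48 in DMSO and 0.18 at 10 mM.

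Within the 10 mM cultures the level differed between times in 28 of 38 genes by the F test (25.3% of all genes). From 12 to 24 h 26 genes rose and 0 fell, with a median change of 0.66 (10.9% of all genes called), but 17 rose without 10 mM replicate 2 at 24 h and 9 without the 6 arrays with weak spike-ins. From 24 to 72 h 0 rose and 15 fell, with a median of -0.50 (11.2% of all genes called), and 8 fell without that same replicate or without the 6 arrays, and 9 without 10 mM replicate 3 at 72 h. From 12 to 72 h 10 genes were higher and 3 lower, with a median of 0.18 (22.3% of all genes called), and 8 in all were called without 10 mM replicate 3 at 12 h or replicate 1 at 72 h, and 7 without the 6 arrays. The 3 lower ones were PSPH, AARS and EPRS. These comparisons, too, were added after the data had been seen.

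At both 12 and 24 h 9 genes were higher at 10 mM, as were 10.1% of all genes: the transcription factor ATF3, the effector SESN2, the receptor VLDLR, the enzymes ASNS and MTHFD2, the transporter SLC1A4, and the synthetases SARS, AARS and CARS. Of the 19 genes higher at 24 h, 17 were lower at 72 h, against 4.64% of the 2891 genes of the whole table that were higher at 24 h. The other two, ASNS and SLC1A4, were called in neither direction at 48 or 72 h. PSPH, DDIT4 and STC2, 3 genes in all, were lower at all 4 times (5.39% of all genes), and 26 were lower at both 48 and 72 h (11.8% of all genes). CHAC1, FGF21 and ATF5 were called at no time, as were 50% of all genes.

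**Figure D3:**
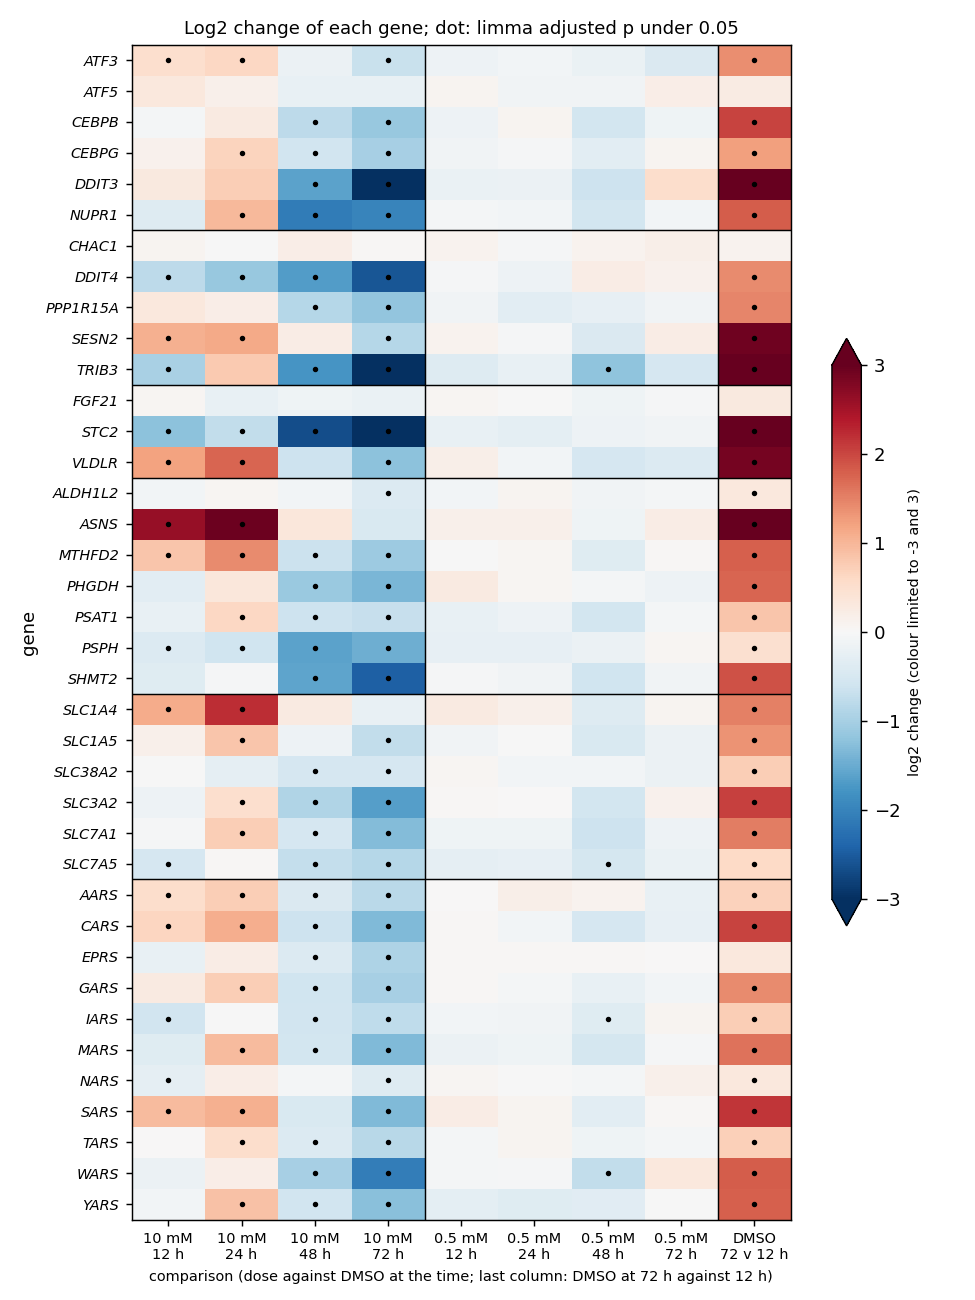
Log2 change of each of the 38 genes, grouped by role, at 10 mM and at 0.5 mM against DMSO at each time and in DMSO at 72 h against 12 h; colour gives the change, limited to -3 and 3, and a dot marks a limma adjusted p under 0.05. At 10 mM the 24 h column is mostly positive (19 higher, 3 lower) and the 72 h column negative (33 lower), while the 0.5 mM columns hold 4 dots, all at 48 h.

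Among the transcription factors, 1 of 6 was higher at 12 h (14.2% of all genes) and 3 at 24 h (15.3%). Of the 6, 4 were lower at 48 h (14.9% of all genes) and 5 at 72 h (16.5%). DDIT3 (ENSG00000175197_at), also called CHOP, which promotes cell death in lasting stress, showed the steepest climb of the 38 in solvent. Its DMSO arrays read 4.94, 5.18 and 4.67 (12 h), 5.77, 6.63 and 5.63 (24 h), 8.74, 7.63 and 7.44 (48 h), and 9.32, 8.96 and 9.37 (72 h). No array of one time overlapped with the next. The 10 mM arrays read 4.94, 5.38 and 5.32 (12 h), 6.63, 7.70 and 5.92 (24 h), 6.09, 6.55 and 6.38 (48 h), and 6.06, 6.10 and 6.33 (72 h). They overlapped with DMSO at 12 and 24 h and lay below every DMSO array at 48 and 72 h. At 0.5 mM it read 4.46, 4.96 and 4.74 (12 h), 6.04, 6.24 and 5.20 (24 h), 7.37, 7.46 and 7.09 (48 h), and 9.30, 9.68 and 10.28 (72 h). These overlapped with DMSO at each time.

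The DMSO rise of DDIT3 from 12 to 72 h was 4.29 ± 0.34 (SE; 19.5-fold, adjusted p = 1.82e-11, limma). At 10 mM it differed from DMSO by 0.28 (adjusted p = 0.637) at 12 h and by 0.74 (0.114) at 24 h. It then fell below DMSO by 1.59 (0.000403) at 48 h and by 3.05 (1.52e-08) at 72 h. Without DMSO replicate 1 at 48 h, the highest of its group, the change at 48 h was -1.19 (adjusted p = 0.00884).

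ATF3 (ENSG00000162772_at), a stress-induced factor of the same family as ATF4, was low throughout but changed in order with the groups. Its mean was at or below the highest array median (3.46) in 5 of the 12 groups, so its changes may understate the difference. In DMSO it read 3.05, 2.82 and 2.73 (12 h), 3.14, 3.29 and 3.01 (24 h), 3.73, 3.61 and 3.69 (48 h), and 4.12, 4.19 and 4.45 (72 h). At 10 mM it read 3.30, 3.56 and 3.27 (12 h), 3.76, 3.99 and 3.57 (24 h), 3.58, 3.40 and 3.54 (48 h), and 3.62, 3.46 and 3.70 (72 h). The high-dose arrays lay wholly above DMSO at 12 and 24 h and wholly below it at 48 and 72 h. The changes were 0.51 ± 0.12 at 12 h (SE; adjusted p = 0.00102), 0.63 ± 0.12 at 24 h (8.35e-05), -0.17 at 48 h (0.314, not past the test) and -0.66 ± 0.12 at 72 h (3.2e-05) by limma. At 0.5 mM the arrays read 2.66, 2.87 and 2.62 (12 h), 3.07, 3.13 and 2.99 (24 h), 3.48, 3.46 and 3.51 (48 h), and 3.63, 4.07 and 3.80 (72 h), wholly below DMSO at 48 and 72 h and overlapping with it before.

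NUPR1 (ENSG00000176046_at), a small stress-induced regulator of transcription, read 8.00, 8.12 and 7.69 in DMSO at 48 h against 5.75, 6.06 and 5.75 at 10 mM, with no overlap. It was lower by 2.09 ± 0.36 at 48 h (SE; adjusted p = 2.28e-05) and by 1.98 ± 0.36 at 72 h (4.28e-05). At 24 h its change was 0.96 (adjusted p = 0.0414), a call that was lost when either 10 mM replicate 1 or 2, or DMSO replicate 1 or 3, was left out. CEBPG, a partner of ATF4 with the composite site shown above, was higher by 0.67 at 24 h (adjusted p = 0.000271) and lower by 1.01 at 72 h (6.38e-07). CEBPB, the inducible C/EBP factor of liver, changed by 0.27 at 24 h (adjusted p = 0.283) and was lower by 1.14 at 72 h (1.99e-06). ATF5, translated under the same control as ATF4, differed by between -0.22 and 0.31 at the 4 times and passed the test at none.

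**Figure D4:**
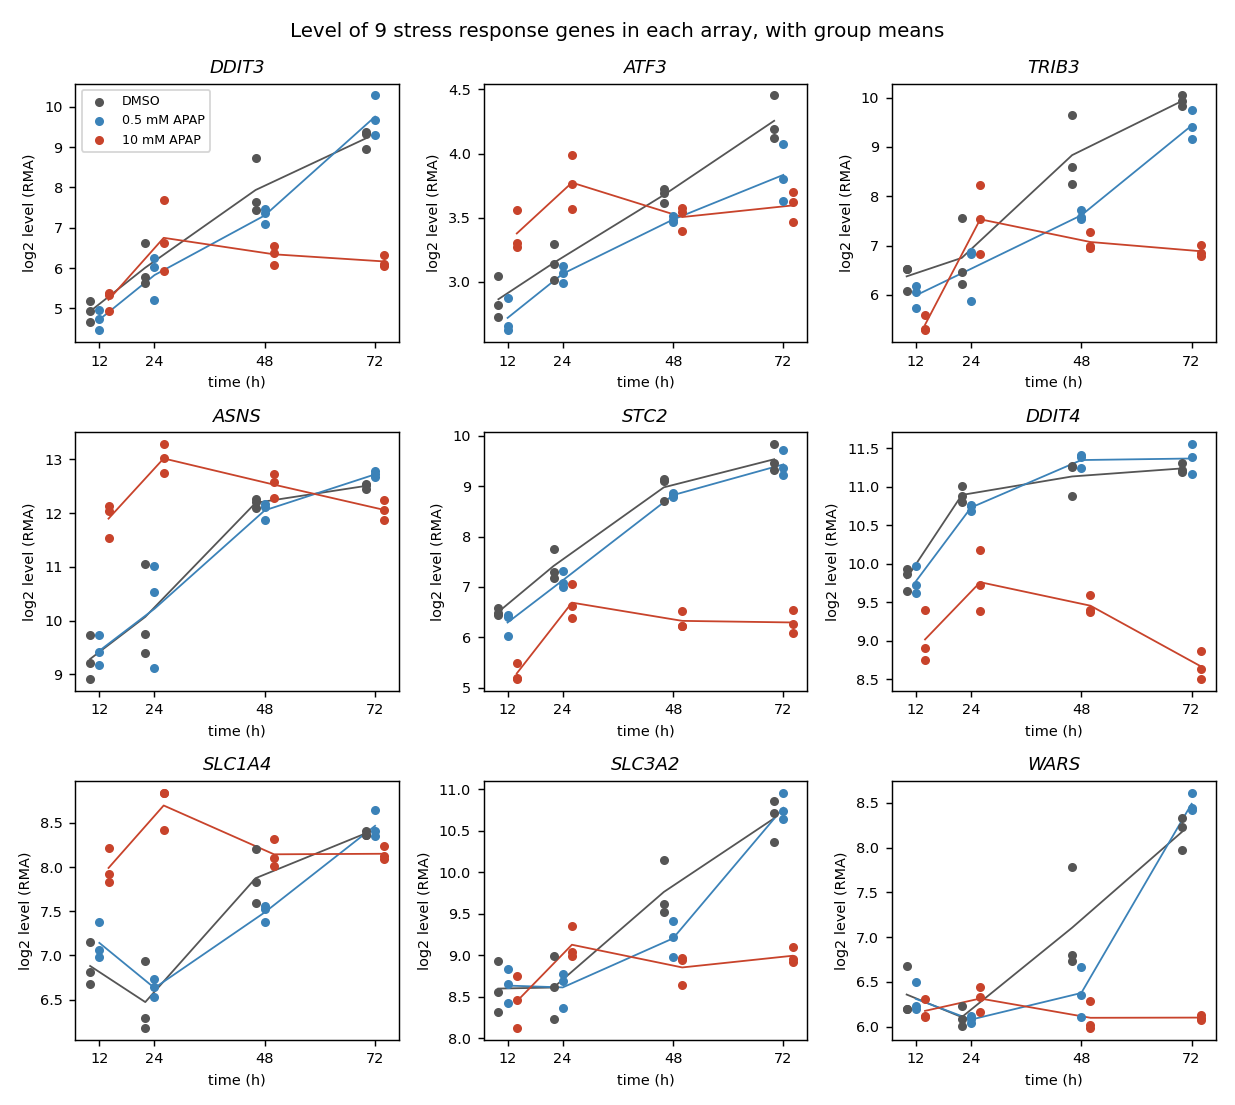
Log2 level of 9 of the genes in every array against time, with the 3 treatments set slightly apart sideways and lines through group means; each panel has its own vertical scale. ASNS and SLC1A4 at 10 mM start above DMSO and are met by it at 48 to 72 h, while DDIT3, TRIB3, STC2, SLC3A2 and WARS end far below it.

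Of the 5 feedback and stress effectors, 1 was higher and 2 lower at 12 h (14.2% and 12.4% of all genes). At 24 h 1 was higher and 1 lower (15.3% and 13.7% of all genes). At 48 h 3 were lower (14.9% of all genes) and at 72 h 4 (16.5%). TRIB3 (ENSG00000101255_at), a pseudokinase that restrains ATF4 and AKT, read 6.52, 6.53 and 6.09 in DMSO at 12 h against 5.31, 5.60 and 5.29 at 10 mM. At 24 h the DMSO arrays read 6.21, 7.57 and 6.48 and the 10 mM arrays 7.55, 8.22 and 6.83. By 72 h DMSO stood at 9.83, 10.04 and 9.93 and 10 mM at 6.86, 7.02 and 6.78. So the high dose lay wholly below DMSO at 12 and 72 h, as it did at 48 h (6.98, 7.27 and 6.96, against a lowest DMSO array of 8.25), and overlapped with it at 24 h. The changes were -0.98 ± 0.32 at 12 h (SE; adjusted p = 0.02, limma), 0.78 ± 0.32 at 24 h (0.0653) and -3.05 ± 0.32 at 72 h (3.77e-09). The call at 12 h was lost, at adjusted p between 0.06 and 0.0722, when 10 mM replicate 1 or 3, or DMSO replicate 1 or 2, was left out. The 0.5 mM arrays read 6.05, 6.18 and 5.74 (12 h), 6.83, 6.88 and 5.88 (24 h), 7.72, 7.58 and 7.54 (48 h), and 9.40, 9.74 and 9.15 (72 h), wholly below DMSO at 48 and 72 h.

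DDIT4 (ENSG00000168209_at), also called REDD1, an inhibitor of the growth regulator mTORC1, was lower at every time. At 12 h its DMSO arrays read 9.93, 9.86 and 9.65 against 8.75, 9.40 and 8.90 at 10 mM. At 72 h the DMSO arrays read 11.31, 11.19 and 11.21 against 8.63, 8.87 and 8.51 at 10 mM. These groups did not overlap at either time. The changes were -0.79 at 12 h (adjusted p = 0.000216), -1.13 at 24 h (1.14e-06), -1.68 at 48 h (6.54e-10) and -2.57 at 72 h (5.34e-14), each with an SE of 0.16.

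SESN2 (ENSG00000130766_at), a leucine sensor that also restrains mTORC1, moved the other way at first, by 1.06 at 12 h (adjusted p = 0.000149) and 1.13 at 24 h (5.61e-05). Its change was 0.22 at 48 h (adjusted p = 0.494), and it was lower by 0.86 at 72 h (0.0011). PPP1R15A, the subunit that directs a phosphatase back to eIF2 alpha, was not called at 12 or 24 h (0.31 and 0.19) and was lower by 0.86 at 48 h (adjusted p = 0.000173) and by 1.19 at 72 h (1.42e-06). CHAC1 (ENSG00000128965_at), an enzyme that breaks down glutathione, stayed between 2.23 and 2.86 in all 36 arrays. Its largest change at 10 mM was 0.21 at 48 h (adjusted p = 0.189), and none passed the test. No detection call comes with these values, so whether CHAC1 was measured above background cannot be said.

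STC2 (ENSG00000113739_at), a secreted glycoprotein, had the largest mean fall of the 38 at 10 mM. In DMSO it read 6.49, 6.44 and 6.59 (12 h), 7.19, 7.76 and 7.30 (24 h), 9.10, 9.14 and 8.70 (48 h), and 9.83, 9.32 and 9.45 (72 h). At 10 mM it read 5.17, 5.19 and 5.49, then 6.62, 7.05 and 6.39, then 6.22, 6.23 and 6.53, and last 6.54, 6.08 and 6.26. All 10 mM arrays lay below all DMSO arrays at each time. The changes were -1.22, -0.73, -2.65 and -3.24 on the log2 scale in the order of the times, each with an SE of 0.17 and with adjusted p from 0.00133 at 24 h to 2.67e-15 at 72 h (limma).

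VLDLR (ENSG00000147852_at), a lipoprotein receptor, read 2.64, 2.38 and 3.22 in DMSO at 12 h against 3.82, 4.02 and 4.05 at 10 mM. At 24 h the DMSO arrays read 3.22, 3.37 and 2.38 against 5.08, 4.33 and 4.76. By 72 h the order had turned, with 5.78, 5.75 and 5.30 in DMSO against 4.60, 4.35 and 4.20. The changes were 1.22 (adjusted p = 0.00126), 1.74 (1.3e-05) and -1.22 (0.000837), with an SE of 0.28. All its DMSO arrays at 12 and 24 h lay below the highest array median (3.46). The changes at these times may thus understate the difference. FGF21, a hormone of the fasting liver, was called at no time, with levels between 2.33 and 3.01 in all 36 arrays.

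ASNS (ENSG00000070669_at), which makes asparagine from aspartate and glutamine, had the largest rise of the 38 at 10 mM. In DMSO it read 8.91, 9.73 and 9.21 (12 h), 9.40, 11.06 and 9.75 (24 h), 12.26, 12.21 and 12.10 (48 h), and 12.46, 12.52 and 12.55 (72 h). At 10 mM it read 11.53, 12.13 and 12.04 (12 h), 13.03, 13.28 and 12.74 (24 h), 12.58, 12.73 and 12.28 (48 h), and 12.05, 12.25 and 11.88 (72 h). The high dose was thus wholly above DMSO at 12, 24 and 48 h and wholly below it at 72 h, at levels where the DMSO arrays had meanwhile risen 9.33-fold. The changes were 2.61 ± 0.33 at 12 h (SE; 6.11-fold, adjusted p = 2.68e-07, limma) and 2.95 ± 0.33 at 24 h (2.28e-08). At 48 and 72 h they were 0.34 (adjusted p = 0.518) and -0.45 (0.35), neither past the test. At 0.5 mM it read 9.17, 9.41 and 9.74 (12 h), 10.54, 11.01 and 9.11 (24 h), 12.11, 12.17 and 11.87 (48 h), and 12.78, 12.67 and 12.72 (72 h), overlapping with DMSO up to 48 h and wholly above it at 72 h.

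PHGDH, PSAT1 and PSPH act in that order to make serine from a glycolytic intermediate. All 3 were lower at 72 h (16.5% of all genes), with 1 of them higher at 24 h (15.3% of all genes). At 12 h PHGDH changed by -0.31 (adjusted p = 0.359) and PSAT1 by -0.23 (0.41), and PSPH was lower by 0.42 (0.0218), a call lost without 10 mM replicate 3 or DMSO replicate 1 or 3. At 24 h PSAT1 was higher by 0.63 (adjusted p = 0.00701; 0.0772 without DMSO replicate 1), PHGDH changed by 0.35 (0.282) and PSPH was lower by 0.60 (0.000881). At 72 h PHGDH was lower by 1.37, PSAT1 by 0.70 and PSPH by 1.46.

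In the mitochondrial one-carbon pathway, SHMT2 takes the carbon from serine and MTHFD2 oxidises the folate that carries it. SHMT2 read 10.46, 10.52 and 10.55 in DMSO at 72 h against 8.09, 8.02 and 8.05 at 10 mM. Its change was -0.02 at 24 h (adjusted p = 0.953), and it was lower by 1.59 ± 0.18 at 48 h (2.05e-08) and by 2.46 ± 0.18 at 72 h (SE; 1.89e-12). MTHFD2 was higher by 0.83 at 12 h (adjusted p = 0.000158) and 1.41 at 24 h (3.44e-08), then lower by 0.65 at 48 h (0.0019) and 1.08 at 72 h (2.17e-06). ALDH1L2, which oxidises formyl-folate in the same compartment, was lower at 72 h by 0.41 (adjusted p = 0.00143), at levels below the array medians, and was not called at the other times.

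Among the transporters, 1 of 6 was higher and 1 lower at 12 h (14.2% and 12.4% of all genes). At 24 h 4 were higher (15.3% of all genes). At 48 h 4 were lower (14.9% of all genes) and at 72 h 5 (16.5%). SLC1A4 (ENSG00000115902_at), also called ASCT1, which carries alanine, serine and cysteine, read 6.81, 7.15 and 6.68 in DMSO at 12 h against 7.92, 8.21 and 7.84 at 10 mM. At 24 h it read 6.30, 6.94 and 6.18 against 8.84, 8.84 and 8.42. At 72 h it read 8.41, 8.37 and 8.37 against 8.24, 8.12 and 8.09. The groups did not overlap at these times, and the changes were 1.11 ± 0.16 at 12 h (SE; adjusted p = 3.77e-06, limma), 2.23 ± 0.16 at 24 h (7.5e-12) and -0.23 ± 0.16 at 72 h (0.329). Its effect at 24 h exceeded that at 12 h by 1.12 (adjusted p = 0.0066).

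SLC7A5 (LAT1), the carrier of leucine and other large neutral amino acids, works bound to SLC3A2 (CD98). SLC7A5 was lower by 0.50 at 12 h (adjusted p = 0.00424), changed by 0.03 at 24 h (0.91) and was lower by 0.85 at 72 h (4.49e-06). SLC3A2 changed by -0.15 at 12 h (adjusted p = 0.654) and by 0.52 at 24 h (0.0438), a call lost without 10 mM replicate 1 or 2 or DMSO replicate 1 or 3. At 72 h it read 10.72, 10.37 and 10.86 in DMSO against 9.10, 8.96 and 8.92, lower by 1.66 ± 0.19 (SE; adjusted p = 3.44e-08). Whether the chains' effects differed from each other was not tested. SLC7A1, the carrier of arginine and lysine, and SLC1A5, that of glutamine, were higher at 24 h by 0.74 and 0.84 and lower at 72 h by 1.29 and 0.73. SLC38A2 (SNAT2), another carrier of small neutral amino acids, was lower at 48 and 72 h by 0.50 and 0.51.

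The tRNA synthetases each load 1 amino acid onto its tRNA, EPRS both glutamate and proline. At 12 h 3 of 11 were higher (14.2% of all genes), SARS by 0.95, CARS by 0.64 and AARS by 0.52. The 2 lower ones (12.4% of all genes) were IARS by 0.59 and NARS by 0.26. Without DMSO replicate 3 the calls of AARS, CARS and NARS at 12 h were lost, and without 10 mM replicate 2 AARS (adjusted p = 0.0798) and CARS (0.0774) were not called. At 24 h 7 were higher and 0 lower (15.3% and 13.7% of all genes), with changes of 0.53 to 1.08. At 48 h 9 were lower (14.9% of all genes) and at 72 h all 11 were (16.5%), by 0.39 to 2.08. Without DMSO replicate 1 at 48 h, 6 of the 9 calls at 48 h were lost (AARS, CARS, EPRS, MARS, TARS and YARS), with changes of -0.37 to -0.27 and adjusted p of 0.117 to 0.284, and 3 were left.

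WARS (ENSG00000140105_at), the tryptophan enzyme, is also known as an interferon-induced gene. It read 6.20, 6.68 and 6.19 in DMSO (12 h), 6.01, 6.23 and 6.09 (24 h), 7.78, 6.74 and 6.80 (48 h), and 7.98, 8.23 and 8.33 (72 h). At 10 mM it lay between 5.99 and 6.44 in all 12 arrays. Its change was -0.18 at 12 h (adjusted p = 0.542) and 0.21 at 24 h (0.473), and it was lower by 1.01 at 48 h (3.89e-05) and 2.08 at 72 h (7.61e-11). At 48 h the change against DMSO was -0.67 without DMSO replicate 1.

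IARS (ENSG00000196305_at), the isoleucine enzyme, read 12.01, 12.19 and 11.95 in DMSO at 12 h against 11.48, 11.49 and 11.42 at 10 mM, and 12.06, 12.22 and 12.06 at 24 h against 12.15, 12.04 and 12.11. The groups were apart at 12 h and mixed at 24 h. Its changes were -0.59 ± 0.08 at 12 h (SE; adjusted p = 1.78e-06) and -0.01 ± 0.08 at 24 h (0.943), and the effect at 24 h exceeded that at 12 h by 0.57 (adjusted p = 0.00544). MARS, the methionine enzyme, changed by -0.36 at 12 h (adjusted p = 0.145) and was higher by 0.94 at 24 h (8.02e-05), and its effect at 24 h exceeded that at 12 h by 1.30 (0.00305).

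Changes of genes with and without the composite site stand side by side as follows. In DMSO from 12 to 72 h the median change was 1.37 in the 16 genes with the element and 1.80 in the 17 with a window but no element. At 10 mM against DMSO at 24 h the medians were 0.70 and 0.27. These medians are given as a description and were not tested.

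At 0.5 mM the genes climbed with time too. From 12 to 72 h 34 of 38 were higher and 0 lower (29.8% of all genes called), with a median change of 1.45. Against DMSO at the same time, 0 genes were called at 12 h (0.00529% of all genes), 0 at 24 h (0.0159%), 4 at 48 h (3.45%, with 0.846% lower) and 0 at 72 h (0.761%) by limma. At an unadjusted p under 0.05, 1 of the 38 passed at 12 h (4.57% of all genes), 0 at 24 h (6.17%), 16 at 48 h (14.4%) and 1 at 72 h (9.88%). The limma F test called 0 genes for a difference of the 0.5 mM effect between times (0.0846% of all genes), with 3 at an unadjusted p under 0.05 (6.16%).

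The 4 genes called at 48 h were all lower at 0.5 mM, TRIB3 by 1.22 (adjusted p = 0.0254), WARS by 0.73 (0.0162), SLC7A5 by 0.52 (0.0195) and IARS by 0.37 (0.00764). TRIB3 read 7.72, 7.58 and 7.54 at 0.5 mM and 9.65, 8.60 and 8.25 in DMSO, so the groups did not overlap. In 15 of the 38 genes all 0.5 mM arrays lay below all DMSO arrays at 48 h, as in 6.92% of all genes, and the median change was -0.33. Arrays of the same number correlated weakly at this time and were treated as paired. With the number as a block 11 genes were called lower, adding PSAT1, SHMT2, SLC3A2, SLC7A1, CEBPB, MARS and SLC1A5. The count rested on single arrays: it was 0 without DMSO replicate 1, which stood high and had weak spike-ins, 1 without 0.5 mM replicate 1 or 2, 2 without replicate 3, and 8 without DMSO replicate 3. At 72 h ATF3 was called under the block (-0.42, adjusted p = 0.0338), and 1 gene was called without 0.5 mM replicate 2.

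Averaged over the 4 times, 3 genes were lower at 0.5 mM and 0 higher (6.21% of all genes called, 2.07% lower): TRIB3 by 0.58 (adjusted p = 0.0231), SLC7A5 by 0.31 (0.00298) and ATF3 by 0.21 (0.0253). The count was 6 with the block, though not all pairs at 12 and 24 h correlated. It was 1 without DMSO replicate 2 at 24 h and 5 without DMSO replicate 2 or 3 at 48 h. The 10 mM dose averaged over times was compared with the same DMSO arrays and gave 3 higher and 23 lower (45.8% of all genes called, 23.8% higher and 22.1% lower). The higher ones were ASNS by 1.36, SLC1A4 by 0.84 and SESN2 by 0.39, and the genes furthest below DMSO were STC2 (-1.96), DDIT4 (-1.54) and TRIB3 (-1.25). Set directly against 0.5 mM, 10 mM gave 6 higher and 16 lower (42.9% of all genes called, 22% higher and 20.9% lower). ASNS was higher by 1.27 (adjusted p = 1.13e-07), SLC1A4 by 0.81 (8.97e-10), VLDLR by 0.48 (0.00589), SESN2 by 0.42 (0.000869), ATF3 by 0.29 (0.000121) and MTHFD2 by 0.19 (0.0496). STC2 was lower by 1.77 (adjusted p = 7.15e-17) and DDIT4 by 1.58 (1.28e-16). The MTHFD2 call was lost in 25 of the 36 fits that left out 1 array.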

How the data were processed

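The authors deposited log2 levels made by RMA, per the submitters' processing notes, with 1 row for each gene and 1 column for each array. Its version and probe set definition: not given in the sources used here. Levels were used as deposited. The members, lists and most comparisons were chosen with earlier results of these data known. With limma 3.58.1 (R 4.3.3), lmFit and eBayes fitted 12 group means to the 36 arrays together (24 residual degrees of freedom), and p-values were Benjamini-Hochberg adjusted over 18919 genes, with a threshold of 0.05. The 62 control rows were left out. F tests compared times, and differences between neighbouring times and between effects were added after seeing the data. A check of the fit used simulated data with independent noise in each array. Those data held no pairing and no outlying arrays, so the check cannot speak to either.

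Values in every array are given for DDIT3, ATF3, TRIB3 and ASNS, as a range for CHAC1, and at chosen times for genes of each role with a large mean difference between 10 mM and DMSO; others are named where a call changes with dose, time or setting. The reference table held 59792 rows and 0 Ensembl identifiers, so markers of cell types and further genes of the pathway, which have no identifier here, were not analysed. Promoter windows are RefSeq's, matched by symbol or synonym. Figures were drawn with matplotlib 3.10.9.

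Replicate numbers come from the titles, which state no pairing. Arrays of unlike number were not compared in the check that follows. Deviations from group means correlated with r over 0.1 in 20 of 24 pairs with DMSO (range -0.03 to 0.35), and in all 3 pairs of 5 of the 8 comparisons (the 48 and 72 h comparisons of both doses, and 10 mM at 24 h), where arrays were treated as paired by number. Alternatives were the replicate block, fits of single times, median centring, quantile normalization, a level filter, a trended robust prior, array weights, a minimum of 1.5-fold, arrays with weak spike-ins (dap rows under log2 7) or uneven actin rows (over log2 3 apart) left out, and each array left out in turn.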

Additional observations from a re-analysis of the deposited data

Results flagged for a closer look

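In 34 of the 38 genes the effect of 10 mM against DMSO differed between the 4 times by limma's F test (adjusted p under 0.05, n = 3 arrays a group), and the values below are the effect at 72 h minus that at 24 h on the log2 scale, a direct difference added after the data had been seen. Among the transcription factors, the difference was -3.79 for DDIT3, -1.29 for ATF3, -1.4 for CEBPB, -1.68 for CEBPG and -2.94 for NUPR1. It was -3.83 for TRIB3, -1.39 for PPP1R15A, -1.99 for SESN2 and -1.44 for DDIT4 in the feedback and stress effectors. It came to -3.4 for ASNS, -1.33 for PSAT1, -1.72 for PHGDH, -0.86 for PSPH, -2.43 for SHMT2 and -2.49 for MTHFD2 in the asparagine, serine and one-carbon enzymes. It stood at -2.96 for VLDLR and -2.51 for STC2 in the secreted factors and surface receptor. The value was -2.17 for SLC3A2, -0.88 for SLC7A5, -2.03 for SLC7A1, -0.25 for SLC38A2, -1.57 for SLC1A5 and -2.46 for SLC1A4 in the amino acid transporters. It reached -2.29 for WARS, -2.4 for SARS, -1.72 for GARS, -1.54 for AARS, -2.4 for CARS, -2.11 for YARS, -1.15 for EPRS, -0.76 for IARS, -2.26 for MARS, -1.35 for TARS and -0.59 for NARS in the tRNA synthetases. All 34 differences were negative, and in SLC38A2 the direct difference did not pass its own test (adjusted p = 0.346). The arrays with weak spike-ins lay in both treatments (10 mM replicate 2 and DMSO replicate 1 at 24 h, 10 mM replicate 1 at 72 h), and without them the F test called 32 genes and the direct difference 33, all negative. Their part in single genes was not tested.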

How the results depend on the processing

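No alternative reversed a direction of a called gene, and of 148 counts of called genes under other settings of the 16 planned results, 129 were within 1.5 times of the reported count. The other 19 were as follows. With a minimum of 1.5-fold, 10 mM against DMSO gave 3 genes at 12 h, 5 at 24 h, 7 at 48 h, 19 at 72 h and 7 averaged over times, 0.5 mM gave 0 at 48 h and 0 averaged, and 10 mM against 0.5 mM gave 5. Without the 6 arrays with weak spike-ins, 10 mM at 48 h gave 17, 0.5 mM at 48 h gave 0, and the F test over times within 10 mM called 17. For 0.5 mM at 48 h the count was 0 in a fit of the 9 arrays of that time, 7 after the level filter (at least log2 5 in a group, 7376 genes and 34 of the 38), 2 with array weights and 1 without the arrays with uneven actin rows. The same arrays left out gave 1 for 0.5 mM averaged over times. The replicate block gave 11 genes for 0.5 mM at 48 h, 1 at 72 h and 6 averaged over times. It lost none of the calls made without it. At 12 h, where not all pairs correlated, it added SHMT2 at 10 mM (adjusted p = 0.049). For the 10 comparisons added after the data had been seen, 73 of 90 counts were within 1.5 times, and the other 17 were as follows. With a minimum of 1.5-fold, DMSO gave 0 from 12 to 24 h, 12 from 24 to 48 h and 0 from 48 to 72 h. The same minimum gave 3 within 10 mM from 12 to 24 h, 0 from 24 to 72 h and 0 from 12 to 72 h, 17 for the 10 mM effect at 72 minus 12 h and 0 at 24 minus 12 h. Array weights gave 7 for DMSO from 12 to 24 h, 11 from 48 to 72 h and 9 for the effect at 24 minus 12 h. Without the arrays with weak spike-ins the counts were 17 for DMSO from 48 to 72 h, 9, 8 and 7 within 10 mM (12 to 24, 24 to 72 and 12 to 72 h) and 2 for the effect at 24 minus 12 h, which was 12 with the block.

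Leaving out each of the 36 arrays in turn gave 12 to 16 genes for 10 mM at 12 h, 19 to 26 at 24 h, 18 to 27 at 48 h, 33 to 33 at 72 h and 22 to 28 averaged over times. For 0.5 mM it gave 0 to 0 at 12 h, 0 to 0 at 24 h, 0 to 8 at 48 h, 0 to 1 at 72 h and 1 to 5 averaged. The doses against each other gave 21 to 23, and DMSO at 72 h against 12 h 33 to 36. The F tests gave 33 to 35 for the 10 mM effect, 0 to 0 for the 0.5 mM effect, 34 to 34 for the DMSO level and 20 to 30 for the 10 mM level. Where a count moved, the cause was not tested. Median centring and a second quantile normalization moved the median of all genes by under 0.1. Signal over background limits CHAC1, FGF21 and ALDH1L2 most, and 3 arrays a group limit every comparison.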
